A study of Mus musculus with 4 samples.

Results

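Keratins, the intermediate filament proteins of epithelial cells, were followed through the epithelial states of prostate tumours from castrated mice. Of 32285 genes in the deposited count tables, 53 carry a keratin symbol (Krt followed by a number, keratin-associated Krtap genes left out), and the 39 of these with at least 20 unique molecular identifiers (UMIs) over the 4 samples were taken as members. A UMI is 1 captured RNA molecule. The members held 3160882 UMIs. They comprise 19 type I and 20 type II keratins, and 18 of them lie on chromosome 11 and 21 on chromosome 15. Of the 14 keratins under the minimum, 6 had no UMI at all.

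The single-cell RNA libraries came from whole prostate tumours, 1 mouse per library and 2 mice per genotype. PSp mice carry PB-Cre (Cre recombinase under the probasin promoter, which is active in prostate epithelium), the SPOP mutant SpopF133V and the mTmG reporter. PCSp mice carry the same alleles and, in addition, both alleles of the chromatin remodeller gene Chd1 floxed (Chd1L/L). All 4 mice were castrated by surgery at 9 months of age and the tumours were taken 1 month later, so every library is from a castrated, Spop-mutant tumour and none is from an intact or wild-type prostate. Because Cre is driven by probasin, the stromal and immune cells of the same tumours are not its target. The study asks what CHD1 loss does in SPOP-mutant tumours, and the comparison made here is of keratin RNA between epithelial states and between the genotypes.

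Keratins form filaments only as pairs of 1 type I and 1 type II chain, and the pair a cell makes is a classic mark of its kind. In the prostate, basal cells lie on the basement membrane and make the KRT5 and KRT14 pair, while luminal cells face the gland's lumen and make KRT8 and KRT18. KRT4 and KRT13 mark the upper layers of moist stratified epithelia, and KRT6, KRT16 and KRT17 appear in wounded or hyperproliferative epithelium.

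The bases just before RefSeq's transcript start of 5 member genes are shown because these genes make up the basal pair, the luminal pair and a further luminal chain that the results below turn on. Each line gives the last 100 bases before that start, 5′ to 3′ on the gene's own strand, in build GRCm38.p6. The spans are chr15:101712906-101713005 for Krt5 (minus strand), chr11:100206031-100206130 for Krt14 (minus), chr15:102004343-102004442 for Krt8 (minus), chr15:102028116-102028215 for Krt18 (plus) and chr15:101412303-101412402 for Krt7 (plus). The starts differ from those of GENCODE M21, whose gene spans hold all of the Krt14, Krt8 and Krt7 windows and the end of the Krt18 window. Capitals mark TATAA in Krt18 and CCGCCC, the reverse complement of GGGCGG, in Krt7.
Krt5: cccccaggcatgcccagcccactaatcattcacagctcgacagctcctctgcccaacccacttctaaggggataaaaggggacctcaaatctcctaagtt
Krt14: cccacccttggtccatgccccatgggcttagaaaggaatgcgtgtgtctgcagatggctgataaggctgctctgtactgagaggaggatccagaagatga
Krt8: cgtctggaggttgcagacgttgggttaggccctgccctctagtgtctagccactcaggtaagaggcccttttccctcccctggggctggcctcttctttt
Krt18: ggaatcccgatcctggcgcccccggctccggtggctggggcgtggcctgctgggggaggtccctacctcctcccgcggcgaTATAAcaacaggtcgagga
Krt7: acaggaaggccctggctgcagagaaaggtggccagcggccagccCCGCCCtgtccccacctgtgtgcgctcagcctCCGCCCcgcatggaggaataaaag

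RefSeq promoter windows were matched for 24 of the 39 members. Within 250 bases before the start and on either strand, TATAA (the TATA box core) was present in 12 of these 24, against 23.5% of 27025 gene promoters of the same length. In Krt18 it lay 19 bases and in Krt10 26 bases before the start. GGGCGG (a GC box) was present in 2 of 24, Krt7 and Krt75, against 32.9% of all promoters. TGANTCA, which an AP-1 factor can bind, was present in Krt13 alone, against 6.87% of all promoters. A match is a description of letters, and no match says only that these letters are not in this window.

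The 4 libraries held 6539 to 9656 barcodes, of which 5163 to 7806 were kept, and 12507 cells (2714 to 3526 per mouse) were epithelial-like, with median depths of 7985.5 to 14040 UMIs per cell. Pairs of libraries shared 11 to 27 barcode sequences. Cells were clustered with all keratins left out and the clusters were named from other marker genes, so that no keratin placed a cell in a state. The named states held 2114 basal-like, 945 squamous-like, 325 cycling, 913 luminal-progenitor-like, 541 secretory-luminal-like, 1145 Ltf-luminal-like, 676 interferon-high, 859 gut-like and 51 neuroendocrine-like cells. A cluster of 227 cells led by Psca and Upk1a, 74 cells with macrophage genes and 4637 cells of low UMI count took no name. The names rest on these markers alone: the squamous marker list summed to 3629 to 4567 CPM in squamous-like cells but also to 3873 to 4225 CPM in basal-like cells, and its cornified-layer members Sprr3, Cnfn and Crct1 were at 0 in the squamous-like cells. Basal-like cells also carried fibroblast markers, which summed to 1592 to 2362 CPM there, 62.0 to 85.7 CPM in squamous-like cells and 24290 to 25481 CPM in the fibroblasts themselves, and the fibroblast gene Dcn was among the leading genes of the larger basal-like cluster. What part these transcripts have in the basal-like values was not tested.

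Levels are given in CPM, the UMIs of a gene per 1000000 UMIs of the summed cells of a mouse and state. Since the 3′ method counts each molecule once whatever its length, CPM was compared between genes without a length correction. Values of the 4 mice stand in the order PSp mouse 1, PSp mouse 2, PCSp mouse 1 and PCSp mouse 2 throughout. Keratins vary together with the genes that formed the states, so levels across states are a description with no test, and a neighbour in the order is said to overlap where the ranges of the 4 mice meet. Neutrophils, which should make no keratin and whose keratin UMIs were 0.0572% to 0.0820% of all UMIs, are given as a background. The source of their keratin UMIs was not tested. Their median depths, 1633 to 2743 UMIs, were under those of every named state. The same number of stray UMIs in a cell makes a larger CPM at a lower depth. A level under the neutrophil level is therefore not shown to be background.

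**Figure D1:**
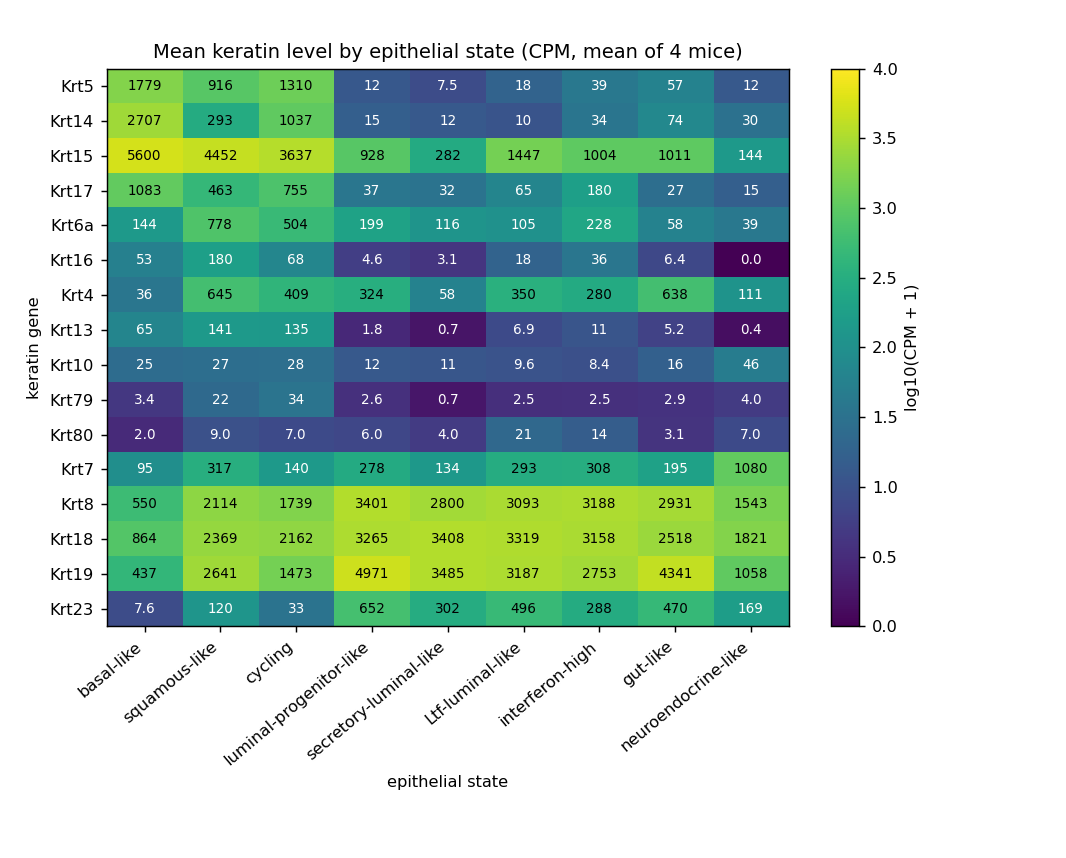
Mean level (CPM, mean of 4 mice) of the 16 keratins that reach 20 CPM in a state, with genes on the vertical axis, epithelial states on the horizontal axis and colour showing log10(CPM + 1). Krt5, Krt14, Krt15 and Krt17 are highest in basal-like cells, and Krt8 and Krt19 in luminal-progenitor-like cells.

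The basal keratins were concentrated in basal-like, cycling and squamous-like cells. Krt5, the type II chain of basal cells (ENSMUSG00000061527, chr15:101707070-101712898 in mm10, minus strand), stood at 1902, 1687, 1758 and 1768 CPM in basal-like cells (1779 ± 90.0, SD, n = 4). It was at 1823, 1121, 1225 and 1069 CPM in cycling cells and at 1166, 846, 755 and 896 CPM in squamous-like cells. Basal-like and cycling cells overlapped, and PSp mouse 1 was the highest of the cycling samples. In the secretory-luminal-like cells Krt5 was between 3.96 and 9.95 CPM, under its level in neutrophils, where it was at 21.3, 12.7, 19.0 and 26.9 CPM.

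Krt14, the type I partner of Krt5, separated basal-like cells from every other state. Its level there was 2741, 2526, 2785 and 2777 CPM, a mean 2.61-fold that of cycling cells, which stood at 1719, 779, 882 and 769 CPM. In squamous-like cells it was at 416, 327, 165 and 263 CPM. The squamous-like cells thus had Krt5 at a mean of 916 CPM with Krt14 at a mean of 293 CPM, whereas in basal-like cells Krt14 was the more abundant of the pair. Krt15, a type I keratin of basal cells and of hair follicle stem cells, was the most abundant keratin of the basal-like state at 5089, 5686, 5571 and 6055 CPM. It was nearly as high in squamous-like cells, at 4099, 4662, 4535 and 4513 CPM, a range that did not meet that of the basal-like cells. Unlike Krt5 and Krt14, Krt15 was also well above its neutrophil level of 75.3 to 98.2 CPM in luminal states, with 1219 to 1709 CPM in Ltf-luminal-like cells and 445 to 1217 CPM in luminal-progenitor-like cells. The cluster led by Psca and Upk1a held 4853, 2068, 1929 and 2540 CPM of Krt15 with only 26.8 to 43.2 CPM of Krt5.

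**Figure D2:**
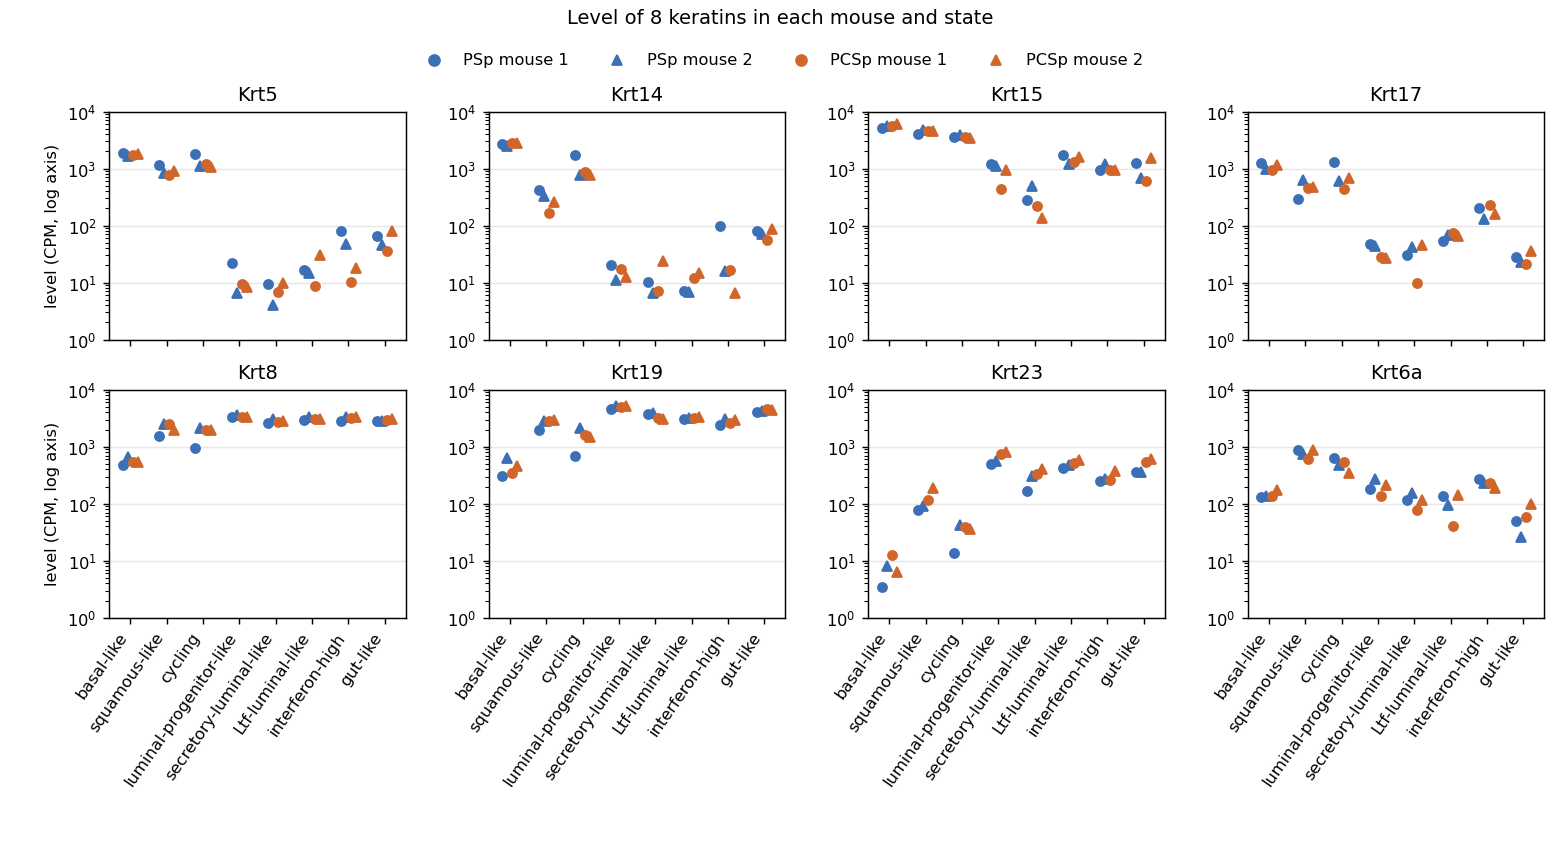
Level of 8 keratins (CPM, log axis) in each of the 4 mice (blue PSp, orange PCSp; circle mouse 1, triangle mouse 2) across 8 epithelial states. The mice lie close together within most states, while Krt5 in interferon-high cells spreads from 10.1 to 80.8 CPM.

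The wound and hyperproliferation keratins did not form 1 group. Krt6a, a type II keratin induced at wound edges, was highest in squamous-like cells at 886, 746, 599 and 880 CPM. Cycling cells followed at 645, 483, 548 and 341 CPM and overlapped with them, while basal-like cells held 131 to 175 CPM. Krt16, a type I partner of Krt6a, was also highest in squamous-like cells at 173, 120, 180 and 247 CPM, above every cycling sample (40.3 to 106 CPM). Krt16 was not detected in the 51 neuroendocrine-like cells. Krt17, a type I keratin of stressed epithelium and skin appendages, followed the basal keratins instead: it stood at 1275, 998, 925 and 1134 CPM in basal-like cells and at 1292, 613, 432 and 681 CPM in cycling cells. Squamous-like cells had 289 to 635 CPM of Krt17. Krt6b, a near-identical copy of Krt6a whose reads may be split between the copies, reached a mean of 3.59 CPM in squamous-like cells.

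The simple epithelial keratins were higher in the luminal states than in basal-like cells. Krt8, the type II chain of simple epithelium (ENSMUSG00000049382, chr15:101996698-102004482, minus strand), was at 3392, 3634, 3309 and 3270 CPM in luminal-progenitor-like cells. Interferon-high cells, at 2786, 3374, 3255 and 3338 CPM, overlapped with them, as did the Ltf-luminal-like state. Basal-like cells held 473, 648, 543 and 537 CPM of Krt8, the lowest of the named states but above the neutrophil background of 110, 164, 171 and 166 CPM. Krt18, the partner of Krt8, was highest in secretory-luminal-like cells at 2730, 3613, 3691 and 3597 CPM and overlapped with the other luminal states. PSp mouse 1 was the lowest of the 4 for Krt18 in that state, which rests on 46 cells in this mouse. Basal-like cells had 814 to 997 CPM of Krt18.

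Krt19, a type I keratin of simple and ductal epithelium, was the most abundant keratin of luminal-progenitor-like cells at 4575, 5105, 5007 and 5197 CPM. Gut-like cells followed at 4063, 4301, 4660 and 4341 CPM, and the ranges overlapped. Basal-like cells had 305, 642, 343 and 456 CPM. Krt23, another type I chain of simple epithelium, showed the widest contrast of the luminal keratins, with 491, 563, 749 and 804 CPM in luminal-progenitor-like cells and 3.45, 8.07, 12.5 and 6.37 CPM in basal-like cells. The basal-like values of Krt23 lie under those of the neutrophils of the same mice (7.71, 14.4, 24.3 and 25.0 CPM). Krt7, a type II keratin of ducts and urothelium, was highest in the small neuroendocrine-like state at 361, 886, 1157 and 1914 CPM, from 7, 9, 23 and 12 cells. Among larger states Krt7 lay within 363, 337, 281 and 286 CPM in squamous-like cells, 265 to 366 CPM in interferon-high cells and 77.3 to 124 CPM in basal-like cells. Krt20, a keratin of gut lining and umbrella cells, was at 0, 18.9, 17.0 and 24.2 CPM in neuroendocrine-like cells, from at most 11 UMIs a mouse, and averaged 2.45 CPM in gut-like cells. The gut-like state, named from Reg1, Lgals4, Tff3 and like genes, thus had little Krt20.

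Among the suprabasal keratins, those of moist stratified epithelium were the abundant ones. Krt4, the type II chain of that pair, was at 614, 774, 645 and 546 CPM in squamous-like cells and at 606, 578, 663 and 706 CPM in gut-like cells, so that these states could not be ordered. The cluster led by Psca and Upk1a held 1235, 777, 460 and 662 CPM of Krt4. Krt13, the type I partner, was at 172, 107, 122 and 164 CPM in squamous-like cells and at 194, 125, 158 and 63.3 CPM in cycling cells, but at only 2.07 to 10.7 CPM in gut-like cells. Krt4 was therefore present in gut-like cells with little of its usual partner. The epidermal pair was scarce. Krt10, the type I chain of the upper epidermis, averaged 46.1 CPM in neuroendocrine-like cells and 27.6 CPM in cycling cells, and Krt1, its type II partner, averaged 15.6 CPM in neuroendocrine-like and 6.36 CPM in gut-like cells. In squamous-like cells Krt10 was at 66.5 CPM in PSp mouse 1 and at 12.3, 14.5 and 16.2 CPM in the others. In that mouse 420 of its 747 UMIs came from the 5 richest of 306 cells, and without them its level was 29.7 CPM. Krt80, of differentiating stratified epithelium, was highest in Ltf-luminal-like cells at 24.7, 25.3, 16.9 and 18.8 CPM, against 6.51 to 8.44 CPM in neutrophils. Krt78 averaged 13.3 CPM in gut-like cells and 0.590 CPM in basal-like cells. Krt77 averaged 3.87 CPM in gut-like cells, and Krt2 and Krt76 averaged at most 0.193 and 0.295 CPM in any named state.

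The 17 remaining members are keratins of hair, its root sheath, the cornea or the nail, and others of no settled place. Krt79, found in hair follicle openings and gland ducts, was at 64.5, 26.1, 19.3 and 25.1 CPM in cycling cells and at 35.4, 16.6, 19.8 and 18.1 CPM in squamous-like cells. PSp mouse 1 was highest in both. Krt75, of the hair companion layer, averaged 15.4 CPM in basal-like cells. Krt12, the corneal keratin, averaged 9.58 CPM in cycling cells, all but a little of it from PSp mouse 1. Krt32 averaged 2.49 CPM and Krt90 1.06 CPM in basal-like cells, and Krt39 1.45 CPM in squamous-like cells. The others averaged at most 3.88 CPM (Krt222) in any named state.

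The ranges of the highest and the next state were apart for 3 of the 16 keratins that reach 20 CPM, namely Krt14, Krt15 and Krt16, and met for the other 13. The 16 keratins stayed highest in the same state under the stricter cell filter. With finer clustering 9 did so, and with keratins kept in the clustering 10 did so. Krt15, although its ranges were apart, was highest in squamous-like cells with finer clustering. Krt14 and Krt16 kept their highest state in both. The order of the states thus depends on how they are drawn, and not among near neighbours alone.

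Over 32 points (8 states in 4 mice), the log levels of the luminal pair and of the basal pair moved closely together. Pearson's r was 0.970 for Krt8 and Krt18, and 0.958 for Krt5 and Krt14. Other partners gave lower values, at 0.725 for Krt6a and Krt16 and 0.129 for Krt4 and Krt13. Chains that are not the usual partners gave 0.960 for Krt8 with Krt19 and 0.949 for Krt5 with Krt13. The most opposed pair was Krt14 and Krt23, at -0.897. Points of 1 mouse share a library and its depth, and the states were drawn from genes that vary with the keratins, so these values are descriptions.

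Keratins made up 1.22%, 1.33%, 1.24% and 1.34% of all epithelial UMIs. This share was highest in squamous-like cells (1.38% to 1.70%) and, among named states with at least 46 cells in each mouse, lowest in secretory-luminal-like cells (0.998% to 1.18%). The genotype difference in the whole epithelium was 0.00790 percentage points (PCSp minus PSp; exact two-sided permutation p = 0.667). The balance of the chains differed more between states than the total. Type II over type I UMIs gave 0.254, 0.242, 0.243 and 0.232 in basal-like cells, where Krt15 and Krt14 outnumber Krt5. Every other named state was higher, with means of 0.415 in secretory-luminal-like, 0.454 in squamous-like and 0.546 in interferon-high cells. In the whole epithelium the ratio was 0.443, 0.421, 0.400 and 0.393 in the 4 mice. The genotypes did not overlap, with a difference of -0.0354, but 2 mice against 2 cannot give an exact two-sided permutation p below 0.333, which is the value found. The mix of states also differed between mice: basal-like cells, which have the lowest ratio, numbered 408 of 2714, 360 of 2953, 709 of 3526 and 637 of 3314 epithelial cells, the larger shares being those of the PCSp mice, and the part of this mix in the ratio was not tested.

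**Figure D3:**
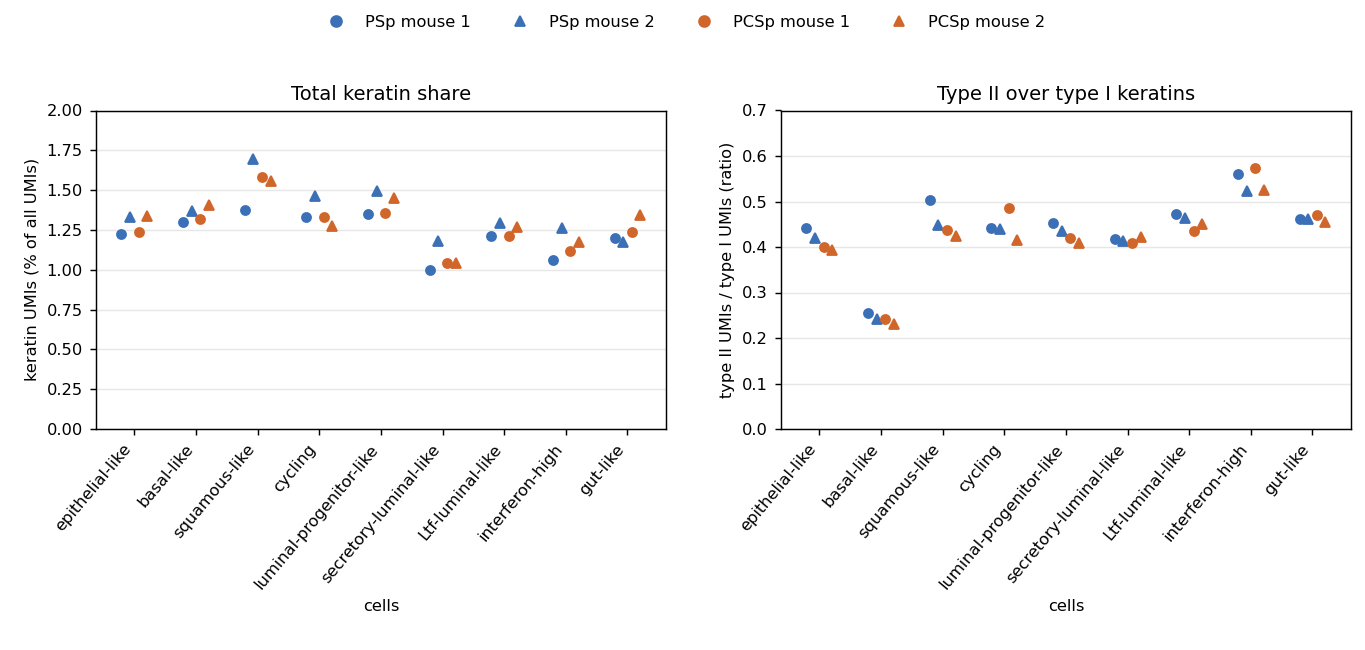
Keratin UMIs as a percent of all UMIs (left) and type II over type I keratin UMIs as a ratio (right) in the whole epithelium and 8 states, 1 point per mouse (blue PSp, orange PCSp). Basal-like cells lie between 0.232 and 0.254 on the right, under every other state, and the 2 PCSp mice lie under the 2 PSp mice for the whole epithelium.

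Single cells showed the same division by the chain each made most. Among cells with at least 5 UMIs of a type, Krt15 was the leading type I keratin in 73.6% to 83.3% of basal-like cells and Krt14 in 14.4% to 22.3%. Krt5 was the leading type II keratin in 90.3% to 97.4% of basal-like cells, and Krt8 in at least 91.8% of the cells of each luminal state and of gut-like cells. Luminal-progenitor-like cells were led by Krt19 (71.7% to 82.0%), as were gut-like cells (72.4% to 86.0%). Interferon-high cells were led by Krt18 (55.1% to 60.1%). In squamous-like cells Krt15 led type I in 52.5% to 62.4%, while for type II Krt8 led in 49.3% to 81.0% and Krt5 in 11.7% to 31.4%. The types were counted separately, so these shares do not say which cells were led by both.

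To count cells with both a basal and a luminal keratin at equal depth, each cell was thinned to 1000 UMIs. Krt5 and Krt8 were then both seen in 23.4%, 30.1%, 25.9% and 26.1% of basal-like cells. Squamous-like cells gave 26.1%, 30.2%, 33.0% and 29.3%, and cycling cells 29.3%, 31.6%, 28.6% and 32.9%. These 3 states overlapped. In luminal-progenitor-like cells the share was at most 0.484%, and in neutrophils, which should lack both genes, 0.211% to 0.440%. Without thinning, at their own depth, 88.5% of basal-like, 81.6% of squamous-like, 66.8% of cycling and 12.2% of luminal-progenitor-like cells had both, against 1.12% of neutrophils. Krt8 alone was seen in 30.0% to 39.3% of basal-like cells thinned to 1000 UMIs and in 10.4% to 15.4% of neutrophils. At 3000 UMIs, which left out 201 basal-like cells and 4987 neutrophils, the means were 67.9% and 30.6%. Median depths before thinning were 9288 to 15280.5 UMIs in basal-like cells and 1633 to 2743 UMIs in neutrophils. Because neutrophils should lack Krt5 too, their share with both genes cannot gauge stray Krt8 UMIs in cells that make Krt5. The part of stray Krt8 UMIs in the basal-like cells with both was not tested.

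**Figure D4:**
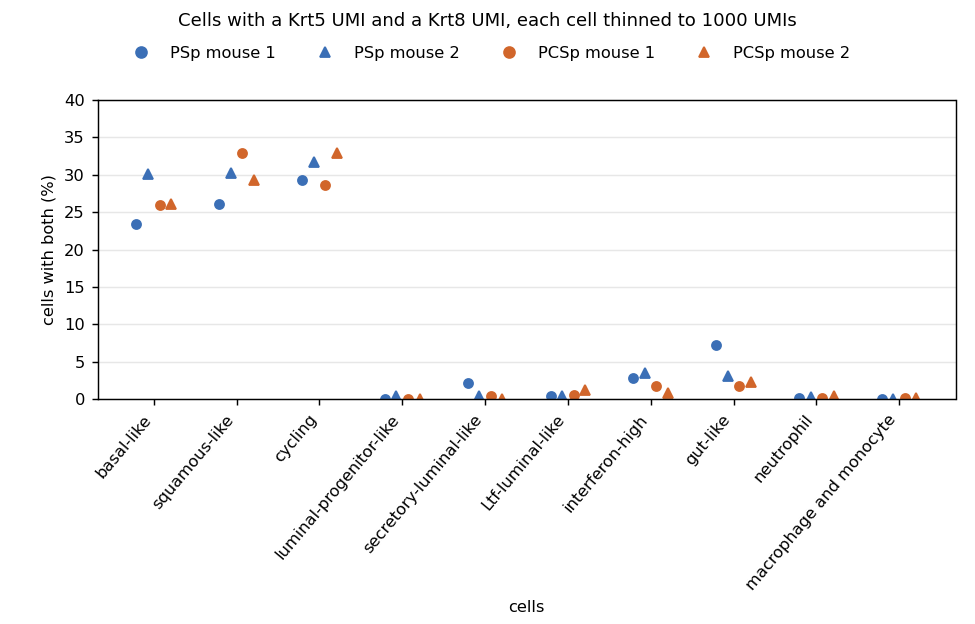
Percent of cells with at least 1 Krt5 and 1 Krt8 UMI after each cell was thinned to 1000 UMIs, 1 point per mouse (blue PSp, orange PCSp). Basal-like, squamous-like and cycling cells lie between 23.4% and 32.9%, and neutrophils, which should lack both genes, between 0.211% and 0.440%.

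The genotypes were compared by summing UMIs per mouse and fitting all genes with edgeR's quasi-likelihood test (PCSp over PSp, Benjamini-Hochberg adjustment over all genes tested, threshold 0.05). The series lists 2 mice per genotype and 2 tumours per genotype, so the spread is taken to be between mice. Each SE given with an edgeR log2 fold change is its absolute value over the square root of edgeR's F statistic, which is an approximation. Chd1 itself was at 91.4 and 78.2 CPM in the PSp epithelium and at 60.1 and 56.3 CPM in the PCSp epithelium. The deleted exons are not given in the sources used here, so a 3′ count that stays above 0 cannot check the deletion.

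In the epithelium as a whole no keratin passed the test. edgeR called 0% of 16412 genes and 0 of the 32 members that passed its filter on low counts. At an unadjusted p under 0.05 there were 1220 genes and 1 member, and DESeq2 called 171 genes and 0 members. The median log2 fold change was -0.02 for the members and -0.01 for all genes. The member with the smallest p was the hair keratin Krt33b, at 0.625 and 0.274 CPM in PSp and 0.116 and 0.138 CPM in PCSp mice (edgeR log2 fold change -1.82, adjusted p = 0.58). On the side of PCSp, edgeR gave the smallest p to Krt32 (0.73), Krt75 (1.08) and Krt23 (0.41), and on the side of PSp next to Krt80 (-0.29) and Krt12 (-3.64). Krt5, Krt14, Krt15, Krt8, Krt18 and Krt19 had log2 fold changes between -0.09 and 0.26.

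**Figure D5:**
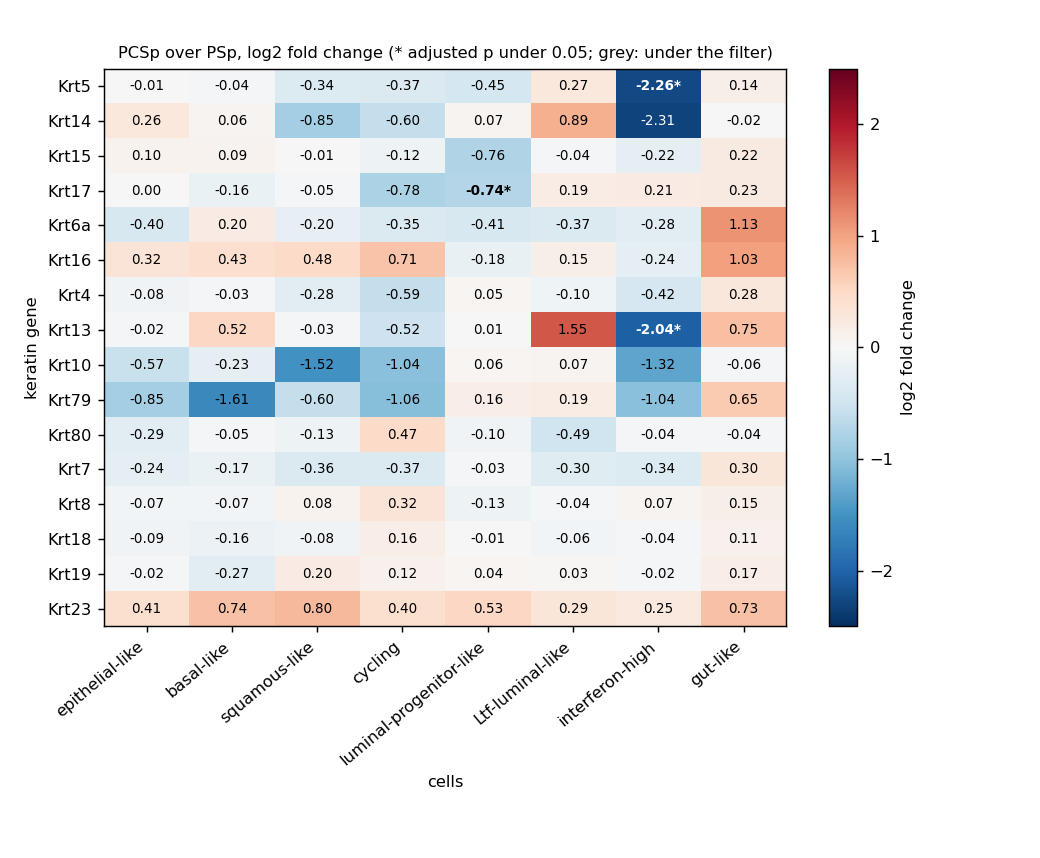
edgeR log2 fold change (PCSp over PSp; red higher, blue lower in PCSp) of 16 keratins in the whole epithelium and 7 states, with calls at an adjusted p under 0.05 marked by an asterisk. Krt5 and Krt13 in interferon-high cells and Krt17 in luminal-progenitor-like cells are the 3 calls.

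In basal-like cells edgeR called 0 of 20 members, against 0.0488% of 12303 genes (6 genes). At an unadjusted p under 0.05 there were 2 members and 9.35% of all genes, and DESeq2 called 43 genes and no member. Krt13 stood at 57.9 and 48.5 CPM in PSp and 66.5 and 88.8 CPM in PCSp mice (log2 fold change 0.52, SE 0.15, edgeR adjusted p = 0.38). Krt79 was at 4.11 and 6.19 against 1.41 and 2.04 CPM (log2 fold change -1.61, SE 0.37, edgeR adjusted p = 0.27). Next by p were Krt23 (0.74) and Krt6a (0.20) upward and Krt10 (-0.23) and Krt18 (-0.16) downward. Without PSp mouse 1 edgeR called 4 members among 229 of 12795 genes, and without PSp mouse 2 it called 2 among 147 of 12817, where the mouse left alone in its group is assumed to vary like the others.

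In squamous-like cells edgeR called 0 of 23 members, against 0.15% of 11337 genes (17 genes). Here 9 members had an unadjusted p under 0.05, as did 11.7% of all genes, and DESeq2 called 45 genes and no member. Krt14 was at 416 and 327 CPM in PSp and 165 and 263 CPM in PCSp mice (log2 fold change -0.85, SE 0.19, edgeR adjusted p = 0.15). Krt23 was at 78.4 and 92.7 against 117 and 190 CPM (0.80, SE 0.20, edgeR adjusted p = 0.19). Krt7 was at 363 and 337 against 281 and 286 CPM (-0.36, SE 0.085, edgeR adjusted p = 0.17). The genotypes did not overlap for these 3 genes, but the genes were named for their small p, which favours such separation. The share of all genes that separate the genotypes in this way is not given here. The sparse Krt75, Krt39 and Krt33b completed the 3 smallest p in each direction, at log2 fold changes of 1.45, 1.35 and -3.48. Without PSp mouse 2 edgeR called 5 members among 73 of 11975 genes, without PCSp mouse 1 it called 4 among 218 of 11979 and without PCSp mouse 2 it called 1 among 37 of 11507.

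In cycling cells edgeR called 0 of 18 members, against 0.0388% of 10318 genes (4 genes). At an unadjusted p under 0.05 there were 3 members and 5.73% of all genes, and DESeq2 called 14 genes and no member. The median log2 fold change of the members was -0.36, and 7 were above 0, while that of all genes was within 0.01 of 0. For Krt17, Krt10 and Krt79, which had the smallest p among those below 0 (log2 fold changes -0.78, -1.04 and -1.06, edgeR adjusted p = 0.83 for each), PSp mouse 1 was the highest sample. Krt75 (1.23), Krt16 (0.71) and Krt80 (0.47) had the smallest p among those above 0. Without PSp mouse 2, where PSp mouse 1 alone stood against the PCSp mice, edgeR called 11 members among 194 of 10544 genes. Without PSp mouse 1 it called 1 among 43 of 10474.

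In luminal-progenitor-like cells edgeR called 1 of 18 members, Krt17, against 0.731% of 11625 genes (85 genes). Krt17 was lower in PCSp mice, at 47.5 and 43.7 CPM in PSp and 28.5 and 26.8 CPM in PCSp mice (log2 fold change -0.74, SE 0.12, edgeR adjusted p = 0.0313). Few cells carried it: 106 of its 166 UMIs in PSp mouse 1 came from 1 cell, and the richest cell held 198 of 718 UMIs in PSp mouse 2, 58 of 222 in PCSp mouse 1 and 58 of 134 in PCSp mouse 2. Without these cells the levels were 17.5, 31.7, 21.1 and 15.5 CPM, which overlap (log2 fold change -0.54, edgeR adjusted p = 0.55). DESeq2 did not call it (adjusted p = 0.065), and edgeR did not without PSp mouse 2 (0.0582), PCSp mouse 1 (0.221) or PCSp mouse 2 (0.109), or with doublet-scored barcodes kept (0.338).

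Krt23, the luminal type I chain, was higher in both PCSp mice in these cells. It was at 491 and 563 CPM in PSp and 749 and 804 CPM in PCSp mice, which did not overlap (log2 fold change 0.53, SE 0.11, edgeR adjusted p = 0.0997). DESeq2 called it (adjusted p = 0.00853). Krt15 was at 1217 and 1100 against 445 and 951 CPM (-0.76, SE 0.28, edgeR adjusted p = 0.41). Krt1 (0.89), Krt19 (0.04) and Krt6a (-0.41) completed the smallest p. Leaving out PSp mouse 2 gave 2 called members among 126 of 11611 genes, and leaving out PCSp mouse 1 gave 0 among 43 of 11577.

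In Ltf-luminal-like cells edgeR called 0% of 12167 genes and 0 of 19 members. At an unadjusted p under 0.05 there were 960 genes and 4 members, and DESeq2 called 34 genes and no member. Krt14 was at 7.20 and 6.84 CPM in PSp and 11.9 and 14.5 CPM in PCSp mice (log2 fold change 0.89, SE 0.18, edgeR adjusted p = 0.33), all under the neutrophil level of its mouse. Krt80 was at 24.7 and 25.3 against 16.9 and 18.8 CPM (-0.49, SE 0.13, edgeR adjusted p = 0.49). Krt83, with at most 2.36 CPM, and Krt78 (-0.75) had small p below 0, and Krt23 (0.29) and Krt13 (1.55) above it. Without PSp mouse 1 edgeR called 1 member among 39 of 12287 genes, and without PCSp mouse 2 it called 1 among 34 of 12765.

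Interferon-high cells, which are led by genes such as Rsad2, Ifit2 and Cxcl10, held the largest keratin differences that passed. edgeR called 2 of 18 members, both lower in PCSp mice, against 0.492% of 11185 genes (55 genes), and DESeq2 called the same 2. Krt5 was at 80.8 and 48.2 CPM in PSp and 10.1 and 17.7 CPM in PCSp mice (log2 fold change -2.26, SE 0.26, edgeR adjusted p = 0.00124). The PCSp levels lie under the neutrophil levels of the same mice (19.0 and 26.9 CPM), and the PSp levels above theirs (21.3 and 12.7 CPM). Neutrophils had lower median depths (1633 to 2743 UMIs), so this does not place the PCSp levels at background. Krt5 UMIs were in 61 of 208, 41 of 232, 17 of 116 and 10 of 120 cells, at median depths of 29610.5, 25446.5, 21708 and 17117.5 UMIs. Krt13 was at 17.1 and 16.5 against 2.43 and 6.03 CPM (log2 fold change -2.04, SE 0.31, edgeR adjusted p = 0.00777). Its levels rest on 129, 110, 7 and 15 UMIs, in 25, 26, 6 and 11 cells of the 4 mice.

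Both calls were also made without the richest cell of each mouse, where Krt5 was at 54.4 and 29.8 against 6.68 and 7.29 CPM (edgeR log2 fold change -2.61, adjusted p = 2.64e-04) and Krt13 gave -2.19 (edgeR adjusted p = 0.00878). With doublet-scored barcodes kept, the clustering drew a state of 1570 cells in place of 676, led by Ltf and Rsad2, and the log2 fold changes were 0.26 for Krt5 and 0.38 for Krt13 with no call. Without PCSp mouse 1 the count was 1 among 37 of 12073 genes, since Krt13 then had an edgeR adjusted p of 0.0575. Without PSp mouse 1 it was 6 among 186 of 10679, and without PSp mouse 2 it was 3 among 201 of 10715. Krt14, the partner of Krt5, was not called. It was at 99.1, 15.9, 16.3 and 6.43 CPM, of which 511 of 746 UMIs in PSp mouse 1 were from 1 cell. Krt10 was at 10.6 and 13.3 against 5.91 and 3.62 CPM (-1.32, SE 0.31, edgeR adjusted p = 0.11). The 10 basal markers summed to 454 and 362 CPM in PSp and 379 and 401 CPM in PCSp mice, which overlap, with none at 0. The 12 squamous markers summed to 940 and 726 against 532 and 572 CPM, with Sprr3 at 0. The part of a few basal-like or squamous-like cells in the calls was not tested. Of the 18 members 4 had a log2 fold change above 0, and their median was -0.23, while that of all genes was within 0.01 of 0. Krt23 (0.25), Krt17 (0.21) and Krt8 (0.07) had the smallest p above 0.

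In gut-like cells edgeR called 0 of 20 members, against 0.275% of 11996 genes (33 genes). At an unadjusted p under 0.05 there were 4 members and 9.77% of all genes. Of the 20 members 16 had a log2 fold change above 0, and the median was 0.20 beside -0.01 for all genes. DESeq2 and other size factors gave the same count, but from the same 4 sums. Without PSp mouse 1, PSp mouse 2, PCSp mouse 1 and PCSp mouse 2 in turn, 18 of 23, 18 of 23, 18 of 21 and 13 of 20 were above 0. The medians were then 0.36, 0.22, 0.53 and 0.09. Krt23 was at 363 and 367 CPM in PSp and 530 and 619 CPM in PCSp mice (log2 fold change 0.73, SE 0.13, edgeR adjusted p = 0.119), and DESeq2 called it (adjusted p = 4.1e-04). Krt6a was at 49.2 and 25.9 against 58.0 and 98.5 CPM (1.13, SE 0.33, edgeR adjusted p = 0.34), and the scarce Krt20 at 1.51 and 0.556 against 5.12 and 2.61 CPM (1.94, SE 0.55, edgeR adjusted p = 0.33). Krt78, Krt10 and Krt80 had the smallest p below 0, all with log2 fold changes between -0.09 and -0.04. The secretory-luminal-like state was not tested, since PSp mouse 1 gave 46 cells.

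The abundant luminal keratins had small genotype differences in the 8 fits, and none of them was called. The log2 fold changes ran from -0.13 to 0.32 for Krt8, from -0.16 to 0.16 for Krt18 and from -0.27 to 0.20 for Krt19. Krt7 ran from -0.37 to 0.30 and Krt4 from -0.59 to 0.28. Outside interferon-high cells, Krt5 ran from -0.45 to 0.27. These ranges were not called different, which does not show that the genotypes are alike.

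Krt23 thus had higher levels in both PCSp mice than in both PSp mice in the whole epithelium and in the squamous-like, luminal-progenitor-like, Ltf-luminal-like, gut-like and untested secretory-luminal-like states, and edgeR called it in none of the fits over all 4 mice with the filter on low counts. With no such filter edgeR called 541 of 18899 genes in squamous-like, 408 of 19216 in luminal-progenitor-like and 501 of 19698 in gut-like cells. In these fits the spread of each gene came wholly from the trend over all genes. Krt23 was among the genes called (edgeR adjusted p = 4.9e-09, 9.33e-04 and 5.62e-06, in the same order). It was also called in squamous-like cells without PCSp mouse 1 (edgeR adjusted p = 8.75e-05) and in luminal-progenitor-like cells without PSp mouse 2 (0.0238). In the basal-like, cycling and interferon-high states the genotypes overlapped. These states come from the same 4 mice, and the share of all genes that separate the genotypes in this way is not given here.

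Whether the genotype effect differs between basal-like and luminal-progenitor-like cells was tested as an interaction, with the mouse as a block. edgeR called 0 of 21 members, against 0.0152% of 13164 genes (2 genes); 952 genes and 5 members had an unadjusted p under 0.05, and DESeq2 was not run on this model. Basal-like minus luminal-progenitor-like, the log2 differences were 0.61 for Krt17 (SE 0.14, edgeR adjusted p = 0.33), 0.96 for Krt15 (SE 0.26, edgeR adjusted p = 0.47) and -1.86 for Krt79 (SE 0.54, edgeR adjusted p = 0.48). Krt6a gave 0.60 and Krt78 1.60. The lower Krt17 of luminal-progenitor-like cells is therefore not shown to be particular to them. Leaving out PSp mouse 1 gave 4 called members among 141 of 13565 genes, leaving out PSp mouse 2 gave 3 among 100 of 13663 and leaving out PCSp mouse 2 gave 1 among 3 of 13604.

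Genes that anchor or accompany keratin filaments were read from the same fits: 14 desmosome and plakin genes, 4 of hemidesmosomes, 7 other intermediate filaments and lamins and 9 of the cornified envelope. In interferon-high cells 2 of the 14 desmosome genes passed, both lower in PCSp mice, against 0.492% of all genes there, and 12 of the 14 had a log2 fold change below 0. Perp, a desmosome membrane protein, is also one of the markers used to call cells epithelial. It was at 105 and 85.7 against 59.4 and 51.8 CPM (log2 fold change -0.79, SE 0.14, edgeR adjusted p = 0.0177). Dsg3, the desmoglein of basal and squamous cells, was at 19.4 and 7.63 against 2.43 and 2.41 CPM (-2.49, SE 0.49, edgeR adjusted p = 0.0373). Perp and Dsg3 were not refitted without their richest cells. In the other 7 fits edgeR called 0 genes of these 4 lists. On the side of PCSp the smallest p were those of Sprr1a, a cornified envelope precursor and squamous marker, in luminal-progenitor-like cells (0.46, SE 0.10, edgeR adjusted p = 0.12) and of the plakin Dst, which is also in the basal marker list, in squamous-like cells (0.48, SE 0.11, edgeR adjusted p = 0.17).

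Of the scarce members, Krt83 and Krt76 were found mainly outside the epithelium. Krt83, a hair shaft keratin, was at 70.6, 66.0, 46.4 and 78.2 CPM in T and NK cells, against 0.225 to 1.20 CPM in the epithelium, which held 24.2% of its UMIs. Within them 1 cluster led by Cd3g, Il7r and Icos held 287 UMIs in 115 of 446 cells, with 62, 74, 77 and 74 UMIs in the 4 mice. The neighbouring hair keratins Krt86 and Krt87 are close copies of Krt83, and how reads they share were counted was not examined. Krt76, a keratin of the palate, had 57 of its 77 UMIs in a fibroblast cluster led by Mgp, Bgn and Sparc (10, 9, 22 and 16 UMIs), in 28 of 373 cells. Krt222, Krt86, Krt25 and Krt2 also had most of their few UMIs outside it, with 16.7%, 22.0%, 22.6% and 47.8% in epithelial-like cells. The remaining members lay mainly in the epithelium, but some were also seen elsewhere. Krt80, with 86.8% of its UMIs in epithelial-like cells, was at 31.7 CPM in a macrophage cluster led by Retnla and MHC class II genes, with 29, 19, 40 and 40 UMIs. Smooth muscle and pericyte clusters carried Krt15 at 1124, 2703, 2133 and 900 CPM together with Krt5 at 206 to 649 CPM and Krt14 at 230 to 676 CPM, from 214 cells in all. The part of RNA from basal cells in these was not tested.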

How the data were processed

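The deposited files hold whole-number UMI counts per gene and barcode, which the authors made from 10x Genomics 3′ v3 libraries of collagenase- and trypsin-dissociated tumours, per the labels; the submitters' processing notes name Cell Ranger 6.1.2 and mm10, and the counts are not normalized. The samples fall into 2 groups of 2 mice by genotype label; 1 element of the genotype that both groups share is not reported here. The members and lists were chosen with earlier results of these data known.

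Barcodes with at least 500 UMIs, 300 genes and at most 20% mitochondrial UMIs were kept. Scrublet's automatic threshold marked at most 0.933% of a library, so the highest-scoring barcodes (0.8% per 1000) were left out instead (285 to 649 per library). Cells were clustered without keratins (scanpy 1.11.5, 2000 variable genes, 30 components, 15 neighbours, Leiden resolution 1), with no batch correction; the labels give no batch. A cluster took a name only where at least 3 markers passed, but some clusters that met this took none. The 227 cells led by Psca and Upk1a met 5 of 12 luminal progenitor markers. The 74 cells with macrophage genes met 6 of 10 basal markers. A cluster of 249 cells of low UMI count with gut genes met 11 of 12 epithelial markers. It took no class name and stayed out of the epithelium.

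Counts were summed per mouse and state with at least 50 cells in every mouse and tested with edgeR 4.0.16 (TMM, filterByExpr, quasi-likelihood, R 4.3.3), two-sided, at an adjusted p of 0.05; DESeq2 1.42.0, size factors, filters, doublets, clustering and left-out mice were the alternatives. The script was tested on simulated data. Values in every mouse are given for keratins with a mean of at least 20 CPM in a state; in each genotype fit the called keratins, the 3 of smallest p in each direction and a list of the best-known keratins could be named, and of the partner genes the 2 of smallest p in each direction. Of 32285 gene IDs, 32235 were found in GENCODE M21, the source of gene positions. Other tools were Python 3.11.15, numpy 2.4.6, scipy 1.17.1 and matplotlib 3.10.9.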

Additional observations from a re-analysis of the deposited data

Results flagged for a closer look

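Krt13, a type I keratin of moist stratified epithelium, had genotype differences of opposite sign in 2 states. It was called lower in PCSp mice in interferon-high cells (edgeR log2 fold change -2.04), while in basal-like cells both PCSp mice, at 66.5 and 88.8 CPM, lay above both PSp mice, at 57.9 and 48.5 CPM (log2 fold change 0.52, edgeR adjusted p = 0.38). Krt13 was found by searching each called keratin for another state in which the mice separate the opposite way. The separation in basal-like cells is therefore what the search selected, and how often genes separate so is not given here. With doublet-scored barcodes kept, Krt13 was not called in interferon-high cells. The difference between these states was not tested.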

How the results depend on the processing

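Of 96 recomputed counts of keratins and epithelium-wide shares and ratios, 66 kept their value within the limits set and 30 did not. Of single levels, ratios and shares 149 did and 19 did not. Of the log2 fold changes 360 kept side and call, 34 gained a call, 7 lost their call and 20 changed sign. With no filter on low counts edgeR called 3 of 33 keratins in basal-like cells beside 399 of 20262 genes. Squamous-like cells gave 11 of 37 beside 541 of 18899, and cycling cells 8 of 35 beside 205 of 17603. Luminal-progenitor-like cells gave 4 of 34 beside 408 of 19216, and Ltf-luminal-like cells 3 of 33 beside 327 of 19598. Interferon-high cells gave 5 of 33 beside 229 of 18222, and gut-like cells 5 of 34 beside 501 of 19698. The interaction gave 3 of 36 beside 192 of 21481. In the state fits of this setting the spread of each gene came wholly from the trend over all genes. The cause of the added calls was not tested. DESeq2 called 1 of 20 keratins in gut-like cells, beside 86 of 11996 genes. With doublet-scored barcodes kept 0 were called in luminal-progenitor-like and in interferon-high cells, and no Ltf-luminal-like value could be given. Over all genes edgeR called 0 to 85 per fit, DESeq2 14 to 171, edgeR with no filter 12 to 541 and edgeR without 1 mouse 0 to 229.

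Leaving out 1 mouse gave 0 to 4 called keratins in basal-like, 0 to 5 in squamous-like, 0 to 11 in cycling, 0 to 2 in luminal-progenitor-like, 0 to 1 in Ltf-luminal-like and 1 to 6 in interferon-high cells, 0 to 4 in the interaction, and 0 in the whole epithelium and in gut-like cells. Of 16 keratins 14 or 15 stayed highest in the same state without 1 mouse, 9 at Leiden resolution 2 and 10 with keratins kept in the clustering (the neuroendocrine-like state left out). The mean keratin share was 1.12% as a mean per cell, beside 1.28%.

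Leaving out 1 mouse changed the sign of some log2 fold changes, all of them uncalled. They ran from -9.42 to 1.87 for Krt12 in the epithelium, -0.31 to 0.027 for Krt18 in basal-like, -0.054 to 0.15 for Krt19 in luminal-progenitor-like and -1.05 to 2.51 for Krt13 in Ltf-luminal-like cells. In interferon-high cells they ran from -0.10 to 0.51 for Krt17 and -0.092 to 0.25 for Krt8, and in gut-like cells from -0.42 to 0.32 for Krt78, -0.30 to 0.15 for Krt10 and -0.42 to 0.28 for Krt80. With doublet-scored barcodes kept the sign changed to 0.17 for Krt7 in squamous-like, -0.17 for Krt80 in cycling and 0.0050 for Krt78 in gut-like cells and, in interferon-high cells, to 0.26 for Krt5, 0.38 for Krt13, -0.041 for Krt17 and -0.044 for Krt8; there the states hold other cells.

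Chosen after seeing the data were the fits without the richest cell of each mouse, which ended the call of Krt17, and the epithelium without low-UMI and macrophage-gene clusters, where edgeR called 0 of 31 members (1 at an unadjusted p under 0.05). No paired analysis was possible because the numbers of the mice were given in accession order, and nothing in the labels ties a number to a litter, batch or day.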

Other observations

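Some keratins were concentrated in few cells. Krt12, the corneal keratin, had 192 UMIs in 37 kept cells, and 157 of them (81.8%) were in 10 cells, 9 of which were from PSp mouse 1. In the cycling cells of that mouse 11 of 86 cells held 118 UMIs, with 47 in 1 cell, while the cycling cells of PSp mouse 2 and PCSp mouse 2 held none. Krt20 had 116 of 246 UMIs in 10 cells, 6 of them from PSp mouse 1. In cycling cells of PSp mouse 1 the upper-epidermal Krt10 had 107 of 176 UMIs in 5 cells. Krt6b, the copy of the wound keratin Krt6a, had 86 of 135 UMIs in 10 cells from all 4 mice. Krt25, an inner root sheath keratin, had 23 of 24 UMIs of the largest fibroblast cluster in PCSp mouse 2, 19 of them in 1 cell.

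The 4637 epithelial-like cells of low UMI count, at medians of 1588.5 to 2128 UMIs, had keratin shares of 0.859% to 0.917%, under the 0.998% to 1.70% of the named states with at least 46 cells in each mouse. Among those with at least 5 type I UMIs, Krt18 led in 36.4% to 44.4% and Krt19 in 34.1% to 44.3%, and Krt8 led the type II keratins in 83.0% to 94.7%.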
